A study of Mus musculus with 6 samples.

Results

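The genes described here make and load the major histocompatibility complex (MHC) molecules, which display peptides at the cell surface. They were chosen by name: every row of both count tables whose symbol starts with H2-, the prefix of the mouse MHC, together with 16 named genes of the light chain, peptide supply, class II loading, MHC-like molecules and their transcriptional regulators. This gave 60 of 23420 rows, of which 44 start with H2- and 49 lie on chromosome 17. The rows fell into 3 classical class I heavy chains, 30 non-classical class I genes, 1 light chain, 5 class II chains, 6 genes of class II loading, 10 of peptide supply and class I loading, 2 regulators and 3 other H2 rows.

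RNA was measured in the luminal layer of the mouse uterus, cut out by laser microdissection, and in blastocysts flushed from the uterus, both taken at 8 pm on day 4 of pregnancy. Control females were Lif-floxed/floxed with no Cre. Lif eKO females were Lif-floxed/floxed Ltf-Cre/+, in which Cre under the Ltf promoter deletes Lif (leukemia inhibitory factor) in the uterine epithelium, and other eKO females were injected intraperitoneally with recombinant Lif (rLif), 20 µg per head, once at 10 am and again at 6 pm of that day, and were dissected 2 h after the second dose. All females thus carried the floxed allele, and the blastocysts were labelled Lif-floxed/+ in all 3 groups. Each group was 1 library, made from RNA pooled over several samples or from pooled blastocysts. There were therefore no replicates, no test of a difference between conditions was possible, and every interval below covers counting error only. Library totals ranged from 18996158 to 28460465 counts.

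Lif itself could not check the luminal labels. It had 0 counts in the control luminal library, 28 in the library labelled eKO and 0 in the library labelled eKO with rLif. The paper places Lif in the uterine glands before attachment, and describes stromal Lif as remaining in eKO females. Directions between luminal libraries therefore rest on labels that this gene did not check. The blastocyst libraries held 1447, 1736 and 1250 Lif counts in the same order. The tissue labels could be set against marker genes. Nanog and Pou5f1 of the inner cell mass were at 0 in all 3 luminal libraries and had at least 2094 counts in each blastocyst library, while the uterine epithelial gene Wnt7a had 2916, 2968 and 4338 luminal counts and 0 in blastocysts. Stromal transcripts were also present in the luminal libraries, where Col3a1 had 5719, 14377 and 8335 counts. In bulk libraries of this kind, fewer cells of a type and less RNA per cell cannot be told apart.

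As background, class I molecules are a heavy chain held together with beta-2 microglobulin, the product of B2m, and they carry peptides cut by the proteasome. Those peptides are pumped into the endoplasmic reticulum by the Tap1 and Tap2 transporter, trimmed by Erap1 and placed on the heavy chain with the help of tapasin (Tapbp), calreticulin (Calr) and Pdia3. Class II molecules are a pair of chains that first bind the invariant chain Cd74 and then exchange it for peptides from endosomes with the help of H2-DM, mainly in antigen-presenting cells. Interferon gamma induces most of these genes, with Nlrc5 as the class I and Ciita as the class II coactivator. They are studied at implantation because the embryo carries paternal antigens.

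Promoters are shown because many of the genes differed together between the 2 tissues, and because the SXY module of MHC promoters is the site where Nlrc5 and Ciita complexes assemble. RefSeq windows on GRCm38.p6, running from 250 bases before to 50 bases after the start of each gene, were found for 41 of the 60 genes. The core of the Y box, bound by NF-Y (CTGATTGG or its reverse CCAATCAG), lay in the windows of 19 of these 41 genes and in those of 4.7% of all 27025 genes. Most of the 19 are paralogs in the class I and class II families, so they share descent. Of the 19, H2-Eb2, H2-Q6, H2-Q7, H2-M1, H2-M10.1, H2-M10.3 to H2-M10.6 and H2-M11 had 0 counts in all 6 libraries. For H2-Q6 and H2-Q7, which share their exons almost wholly with another row, a count of 0 may say nothing about their RNA. The part of the Y box core in the difference between the tissues was not tested. Below are the 250 bases before the start of 6 genes, 5′ to 3′ on the strand of the gene, with the matched letters in capitals. In H2-Aa, H2-Eb1, H2-Oa and Tap1 the capitals mark the Y box core, which starts at -51, -62, -46 and -222 from the start of the gene. In B2m they mark an interferon response match (GAAANNGAA or TTCNNTTTC) at -139, and in Psmb8 a match to the palindromic STAT site (TTCNNNGAA) at -97.
H2-Aa, chr17:34287824-34288073, minus strand: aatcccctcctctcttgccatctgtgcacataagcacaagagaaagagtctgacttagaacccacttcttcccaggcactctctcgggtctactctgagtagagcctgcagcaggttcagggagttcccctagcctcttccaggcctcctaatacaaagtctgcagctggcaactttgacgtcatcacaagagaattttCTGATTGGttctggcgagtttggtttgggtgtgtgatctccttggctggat
H2-Eb1, chr17:34305617-34305866, plus strand: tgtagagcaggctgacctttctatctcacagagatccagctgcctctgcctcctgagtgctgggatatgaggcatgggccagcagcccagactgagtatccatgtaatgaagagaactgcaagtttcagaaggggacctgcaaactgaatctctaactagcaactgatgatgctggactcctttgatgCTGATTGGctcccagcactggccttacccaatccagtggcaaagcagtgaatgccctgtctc
H2-Oa, chr17:34092129-34092378, plus strand: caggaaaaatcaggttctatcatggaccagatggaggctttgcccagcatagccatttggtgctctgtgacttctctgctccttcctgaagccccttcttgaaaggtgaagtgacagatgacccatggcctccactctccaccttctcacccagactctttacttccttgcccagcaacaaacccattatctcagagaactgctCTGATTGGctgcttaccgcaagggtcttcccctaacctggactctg
Tap1, chr17:34187306-34187555, plus strand: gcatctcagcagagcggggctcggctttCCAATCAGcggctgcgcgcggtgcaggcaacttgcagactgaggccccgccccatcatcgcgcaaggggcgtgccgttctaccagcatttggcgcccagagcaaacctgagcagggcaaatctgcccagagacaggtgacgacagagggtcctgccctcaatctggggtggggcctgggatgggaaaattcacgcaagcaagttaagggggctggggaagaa
B2m, chr2:122147437-122147686, plus strand: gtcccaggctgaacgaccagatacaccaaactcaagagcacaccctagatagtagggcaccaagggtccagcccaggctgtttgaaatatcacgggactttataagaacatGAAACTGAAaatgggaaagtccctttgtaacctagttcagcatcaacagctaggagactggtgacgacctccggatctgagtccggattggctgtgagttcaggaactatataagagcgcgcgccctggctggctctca
Psmb8, chr17:34197945-34198194, plus strand: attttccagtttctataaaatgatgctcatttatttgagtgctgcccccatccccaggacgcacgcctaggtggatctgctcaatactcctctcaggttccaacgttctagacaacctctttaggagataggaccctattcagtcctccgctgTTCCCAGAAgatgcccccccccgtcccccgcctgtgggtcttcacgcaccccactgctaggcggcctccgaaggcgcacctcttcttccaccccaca

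Tap1 and Psmb9 face away from each other across the printed stretch, so that their windows overlap and hold the same Y box core, at -11 when counted from the start of Psmb9. The interferon response letters lay in the windows of 4 genes, B2m, Erap1, H2-T22 and H2-T23, against 9.76% of all genes. The STAT letters also lay in 4, H2-DMb2, H2-M11, H2-M3 and Psmb8, against 9.55%. The X1 box core (GCAACAG or CTGTTGC) lay in 1 window, that of H2-M10.5, against 6.24%. It lay there at -189, with the Y box core at -76. The search was for exact letters, so X boxes that differ from this core were not counted. The printed H2-Eb1 stretch, for example, holds gcaactg upstream of its Y box core. These are matches of letters on both strands and not measured binding, and 16 of the 41 genes held none of the 4 motifs.

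The largest part of the signal was in a handful of genes. The 60 genes together held 0.557%, 0.748% and 0.587% of all luminal counts (control, labelled eKO, labelled eKO with rLif, the order used throughout) and 0.196%, 0.165% and 0.173% of blastocyst counts. At least 1 count was found for 42, 43 and 43 of them in the luminal libraries and for 38, 40 and 36 in the blastocyst libraries. The minimum for a comparison within a tissue, 10 counts summed over its 3 libraries, was reached by 41 genes in the luminal layer and 36 in blastocysts.

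A total of 15 genes had 0 counts in all 6 libraries. For 10 of these no other gene lay over the exons, namely H2-Eb2, H2-Ea-ps, H2-T3, H2-M10.1, H2-M10.3, H2-M10.4, H2-M10.5, H2-M10.6, H2-M11 and H2-M1. The other 5 were H2-Q6, H2-Q7, H2-Q8, H2-Q9 and H2-T9, whose exons are shared almost wholly with a second row. H2-Q7 and H2-Q9, which encode the Qa-2 antigen known from mouse embryos, had 15 and 0 bases of their own, respectively, and H2-Q6 and H2-Q8 had 0 and 30. A listed count of 0 for these rows therefore says nothing about their RNA if reads over 2 genes were dropped, and the counting setting is not given in the sources used here. The same held for H2-T22, with 119 bases of its own and at most 2 counts in any library. H2-D1 shared its exons with H2-L on all but 676 of its 1736 bases, so the same setting would understate its level. H2-L, H2-Q1, H2-Q10, H2-K2 and H2-M10.2 had at most 34 counts in any library.

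Levels between genes were compared as TPM, which are counts per kilobase of exon scaled to the same sum in each library. In the control luminal library B2m stood first at 2352 TPM, followed by H2-K1 at 997 and H2-D1 at 527.8. Calr (420.3), Pdia3 (299.6), Tapbp (293.4), Cd74 (280.6), H2-Ab1 (271.1), Psmb8 (243.7) and H2-Aa (237.7) made up the next tier. In control blastocysts the order was another one, with Calr at 1092 TPM, Pdia3 at 485.1, H2-K1 at 236.1, H2-Ke2 at 157.1 and H2-D1 at 132.3 in front of B2m at 64.66. H2-Ke2 is listed in RefSeq as Pfdn6, a subunit of the prefoldin chaperone, and is placed with the MHC by position and old name only.

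**Figure D1:**
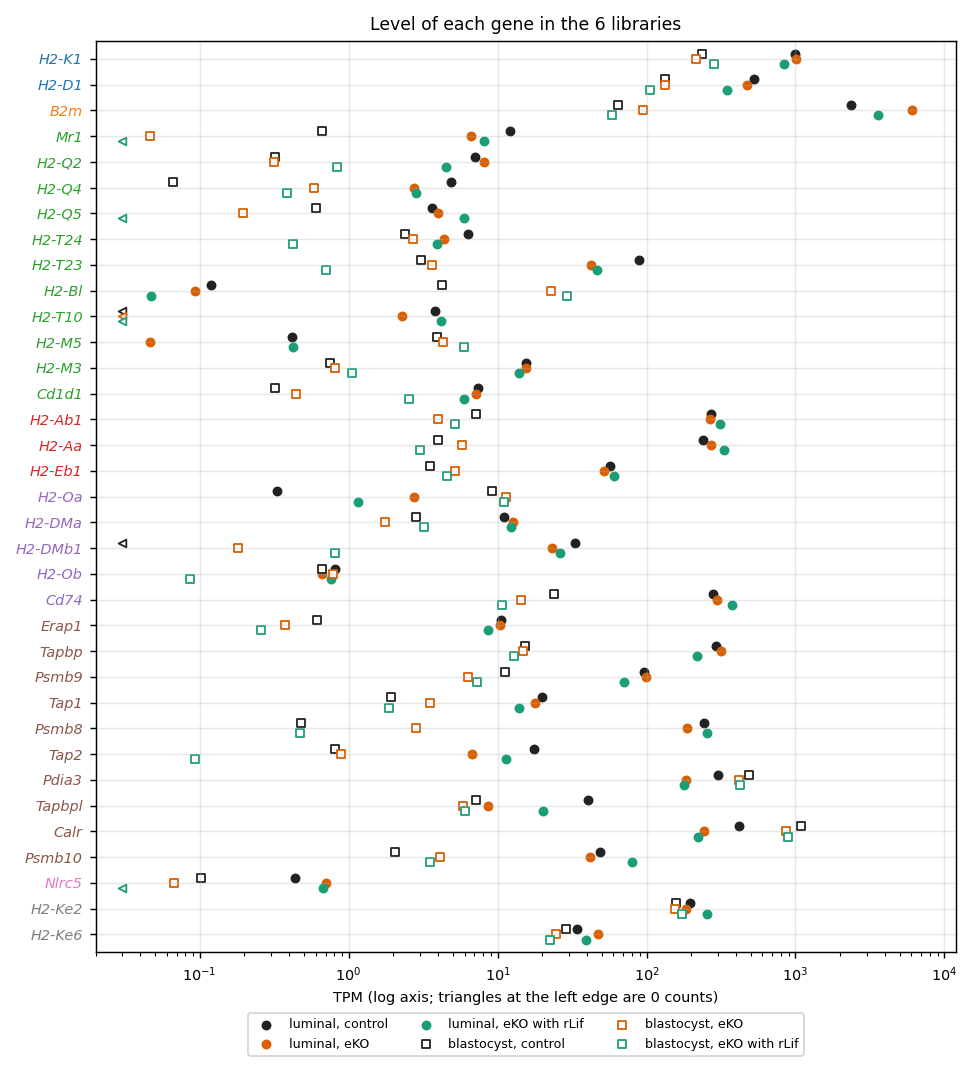
Level of the 35 genes with at least 100 counts over the 3 libraries of a tissue, in TPM on a log axis, with one point per library (filled circles luminal, open squares blastocyst, colours for the 3 groups, gene names coloured by role). Most luminal points lie to the right of the blastocyst points, while Calr, Pdia3, H2-Oa, H2-Bl and H2-M5 have blastocyst points at or to the right of the luminal ones.

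The first question was how the luminal layer and the blastocysts differed. A gene was called higher or lower when the 95% interval of the ratio of 2 libraries lay wholly beyond a log2 ratio of 1. With all 6 libraries scaled together, 43 of the genes could be compared. In control luminal layer against control blastocysts 30 were higher, where 27.0% of the 17081 genes compared were higher, and 3 were lower, where 25.1% were. The median log2 ratio was 3.60 over these genes and 0.07 over all genes. With the libraries labelled eKO of both tissues 27 were higher and 3 lower, where 28.8% and 28.0% of all genes were. With the rLif-treated libraries 34 were higher and 4 lower, where 29.3% and 26.3% were. These other pairs were chosen after the data were seen.

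The light chain and the class I heavy chains were far from proportional between tissues. B2m had 29104, 96051 and 55857 luminal counts and 470, 696 and 434 blastocyst counts. Its ratio in the controls was 51.8-fold (log2 5.70, interval 5.56 to 5.83). H2-K1 had 23669, 30861 and 25131 luminal counts against 3292, 3054 and 4077, a ratio of 6.02-fold (log2 2.59, 2.54 to 2.64). Every luminal value stood above every blastocyst value for both genes, but the gap was wider for the light chain. H2-D1 had 13216, 15191 and 11018 against 1945, 1980 and 1580, with a log2 ratio of 2.51 (2.44 to 2.58).

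Per length, B2m stood at 1.54, 4.07 and 3.01 times the sum of H2-K1 and H2-D1 in the luminal libraries and at 0.176, 0.271 and 0.149 times that sum in blastocysts. This measure was chosen after the values were seen. With H2-D1 counted over its 676 unshared bases only, the values were 1, 2.72 and 2.06 in the luminal layer and 0.112, 0.17 and 0.105 in blastocysts. B2m was thus level with or above the heavy chains in each luminal library and below them in each blastocyst library on either length. The protein of B2m and of the heavy chains was not measured.

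Class II genes were mostly a luminal signal. H2-Aa and H2-Ab1 encode the 2 chains of the I-A molecule, and H2-Eb1 the beta chain of I-E. H2-Aa had 3665, 5396 and 6419 luminal counts against 36, 53 and 28 in blastocysts (85.2-fold in the controls, log2 6.41, interval 5.94 to 6.93). H2-Ab1 had 4665, 5872 and 6775 against 72, 41 and 54 (log2 5.76, 5.43 to 6.12), and H2-Eb1 had 1360, 1595 and 1837 against 50, 74 and 66 (log2 4.51, 4.10 to 4.95). No luminal library overlapped a blastocyst library for any of these chains. H2-Ea-ps and H2-Eb2 were at 0 in all 6 libraries.

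Among the genes of class II loading, Cd74 had 5726, 7823 and 9685 luminal counts and 286, 175 and 131 blastocyst counts (log2 4.07, 3.90 to 4.24). H2-DMb1, a chain of the peptide exchange factor H2-DM, had 613, 551 and 610 against 0, 2 and 9. With the 0 set to a floor of 3 counts, H2-DMb1 was 171-fold higher in the control luminal library (log2 interval from 7.12 upward). Its partner H2-DMa had 265, 388 and 371 against 40, 25 and 46 (log2 2.47, 1.99 to 2.99). The 2 beta chain genes H2-DMb1 and H2-DMb2 share 27.2% of the 50-base windows of H2-DMb1 with other transcripts, so the split of reads between them is uncertain, and H2-DMb2 had at most 26 counts in any library. Ciita, the class II coactivator, had 19, 37 and 17 luminal counts and 0, 3 and 0 in blastocysts.

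H2-Oa and H2-Ob form H2-DO, which restrains H2-DM, and H2-Oa went the other way. It had 5, 53 and 22 luminal counts and 81, 103 and 101 blastocyst counts (19.4-fold lower in the control luminal library, log2 -4.27, interval -5.94 to -2.99). Its Y box core is printed above with those of H2-Aa and H2-Eb1, which were higher in the luminal layer. H2-Ob had 31, 33 and 37 against 15, 18 and 2, with a log2 ratio of 0.79 in the controls whose interval of -0.14 to 1.79 included 0. Exons of H2-Oa overlap those of BC051537 on all but 849 of 1049 bases, and BC051537 had at most 3 counts in any library.

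Immune cell transcripts were counted beside the class II genes, since antigen-presenting cells carry class II. Of 23 listed immune markers 22 were in the tables. They summed to 3289, 2977 and 3457 TPM in the luminal libraries and to 172.2, 324.6 and 73.16 TPM in the blastocyst libraries. Most of the sum in the control luminal library came from Lyz2 (1233 TPM) and Cd14 (1213 TPM). Other myeloid markers ranged widely there, from 4843 counts of C1qb, 3480 of C1qc, 939 of Cd68 and 233 of Csf1r to 49 of Mrc1, 39 of Itgax and 32 of Itgam. Ptprc, the pan-leukocyte marker, had 225. Flt3 of dendritic cell precursors was at 0 in the control luminal library, and of the luminal libraries Ms4a1 had counts in the one labelled eKO alone. The part of immune cells in the class II signal was not tested.

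Peptide supply split into 2 kinds of genes. Psmb8, an inducible catalytic subunit of the immunoproteasome, had 4298, 4239 and 5671 luminal counts and 5, 30 and 5 blastocyst counts, with a log2 ratio of 9.49 in the controls (interval 8.27 to 11.11). Psmb10 had 886, 978 and 1829 against 22, 45 and 39 (log2 5.08, 4.47 to 5.76), and Psmb9 had 1118, 1484 and 1035 against 77, 44 and 51 (log2 3.60, 3.27 to 3.96). All 3 inducible subunits stood apart between the tissues in every library. The transporter genes did so as well, with 849, 980 and 746 against 48, 89 and 48 for Tap1 (log2 3.89, 3.47 to 4.34) and 635, 311 and 515 against 17, 19 and 2 for Tap2 (log2 4.97, 4.28 to 5.76).

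Tapasin behaved like the transporter. Tapbp had 11637, 15997 and 10925 luminal counts and 355, 350 and 307 blastocyst counts (log2 4.78, 4.63 to 4.93). Tapbpl, a tapasin-related peptide editor, had 1213, 330 and 756 against 125, 104 and 108 (log2 3.02, 2.76 to 3.30), and the trimming peptidase Erap1 had 613, 773 and 627 against 21, 13 and 9 (log2 4.61, 3.99 to 5.31). The general chaperones of the endoplasmic reticulum did not pass in either direction. Calr had 11778, 8686 and 7784 against 17967, 14475 and 15011 (log2 -0.87, -0.90 to -0.83), and Pdia3 had 11415, 9049 and 8515 against 10857, 9489 and 9672 (log2 -0.18, -0.22 to -0.15). Scaled for library size, each blastocyst library was above each luminal library for Calr, and the tissues overlapped for Pdia3.

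The composition of the proteasome was given per length as the share of each inducible subunit in its sum with the constitutive subunit it replaces. For Psmb8 over Psmb8 and Psmb5 this was 17.2%, 16.5% and 13% in the luminal libraries and 0.0816%, 0.5% and 0.0727% in blastocysts. For Psmb9 and its counterpart Psmb6 it was 11.2%, 9.85% and 6.61% against 2.39%, 1.51% and 1.24%. Psmb10 took 21.9%, 21.3% and 35% of its sum with Psmb7 in the luminal libraries and 0.897%, 1.96% and 1.29% in blastocysts. Over all 6 subunits the inducible share was 15.5%, 14% and 12.4% in the luminal layer and 1.07%, 1.11% and 0.749% in blastocysts. In the library labelled eKO with rLif, Psmb10 had the highest share of the luminal libraries and Psmb8 and Psmb9 the lowest, and the 95% intervals of these shares (33.6 to 36.3%, 12.6 to 13.3% and 6.23 to 7.01%) did not reach those of the other luminal libraries.

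**Figure D2:**
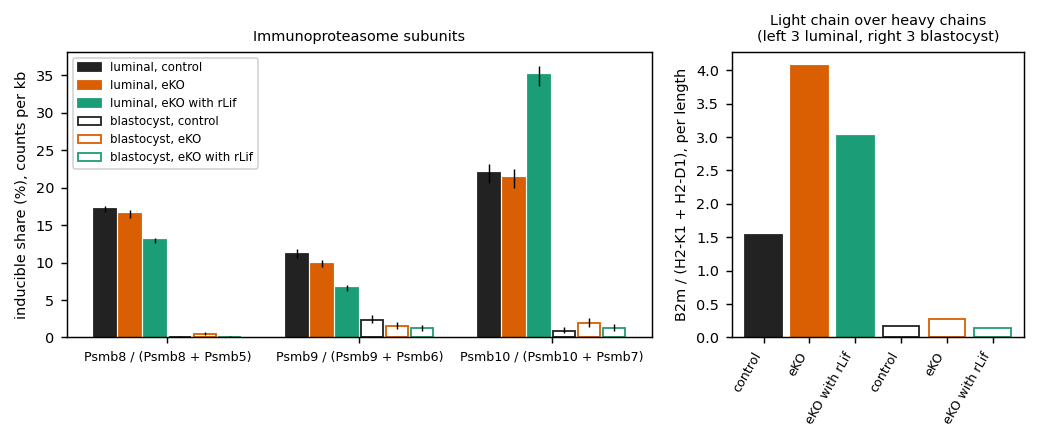
Left, share of each inducible proteasome subunit in its sum with the constitutive counterpart (%, counts per kilobase, axis from 0), with exact 95% binomial intervals for counting error, in the 6 libraries. Right, B2m over the sum of H2-K1 and H2-D1 per length, where the luminal bars run from 1.54 to 4.07 and the blastocyst bars from 0.149 to 0.271.

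Of the 15 non-classical class I genes compared between tissues, 10 were higher in the control luminal layer and 2 were lower. Over all genes compared, 27.0% were higher and 25.1% lower. H2-T23, which encodes Qa-1, a ligand of the NK cell receptor NKG2A, had 1688, 1035 and 1110 luminal counts and 34, 41 and 8 in blastocysts (log2 5.38, 4.89 to 5.91). H2-M3, which binds N-formylated peptides, had 321, 412 and 359 against 9, 10 and 13 (log2 4.90, 3.96 to 6.04), and H2-T10 had 160, 122 and 219 against 0 in all 3 blastocyst libraries. With the 0 set to a floor of 3 counts, H2-T10 was 44.6-fold higher in the control luminal library (log2 interval from 5.17 upward). Mr1, which presents vitamin B metabolites, had 441, 308 and 367 against 14, 1 and 0 (log2 4.72, 3.96 to 5.60). H2-M3, H2-T10 and Mr1 thus had at most 14 counts in any blastocyst library. Cd1d1, which presents lipids, had 195, 245 and 200 against 5, 7 and 41 (log2 5.03, 3.78 to 6.67).

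Of the Q genes, H2-Q2 had 112, 165 and 90 luminal counts against 3, 3 and 8 (log2 4.97, 3.38 to 7.27) and H2-Q4 had 125, 91 and 92 against 1, 9 and 6 (log2 6.71, 4.20 to 12.02). H2-Q5 had 62, 87 and 127 against 6, 2 and 0 (log2 3.11, 1.91 to 4.61). H2-T24 was nearer between tissues, with 200, 176 and 156 against 44, 51 and 8 (log2 1.93, 1.45 to 2.43). Sharing of 50-base windows with other genes was 22% for H2-Q4, 35.4% for H2-Q5, 31.6% for H2-T10, 15% for H2-T23, 25.8% for Cd1d1 (with its copy Cd1d2) and 3.23% for H2-T24. Counts of these rows are uncertain to that extent.

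Only 2 other genes were called lower in the luminal layer beside H2-Oa. H2-Bl, annotated as a polymorphic pseudogene at chromosome 17 from 36080189 to 36084249 (GRCm38), had 2, 2 and 1 luminal counts and 42, 228 and 296 in blastocysts (25.1-fold lower in the control luminal library, log2 -4.65, -7.74 to -2.71). H2-M5 had 7, 1 and 9 against 39, 43 and 60 (log2 -2.73, -4.14 to -1.56). Both class I genes were therefore blastocyst signals against the direction of their family. H2-Bl shares 11.8% of its windows with other genes, chiefly H2-Q1, Gm10499 and H2-Q10. H2-Q1 and H2-Q10 had at most 8 counts in a blastocyst library, and Gm10499 was not among the 23420 rows counted. H2-M5 shares 1.04%.

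H2-Ke2 and H2-Ke6 were not called between the tissues. H2-Ke2 had 2026, 2465 and 3347 luminal counts and 957, 964 and 1077 in blastocysts (log2 0.83, 0.71 to 0.94). H2-Ke6, a dehydrogenase gene of the MHC region with 96.3% of its windows shared with Gm20427, had 473, 842 and 683 against 235, 206 and 187 (log2 0.75, 0.52 to 0.98). Neither takes part in peptide display. The class I coactivator Nlrc5 had 44, 91 and 85 luminal counts against 6, 4 and 0 (log2 2.62, 1.38 to 4.14), a higher call.

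Without any ratio of single libraries, the 3 luminal values lay wholly above the 3 blastocyst values for 35 of the 43 genes, where 36.9% of all genes did, and wholly below for 4, where 36.6% did. The 4 were H2-Oa, H2-Bl, H2-M5 and Calr. The 3 libraries of a tissue differ in treatment and are not replicates.

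**Figure D3:**
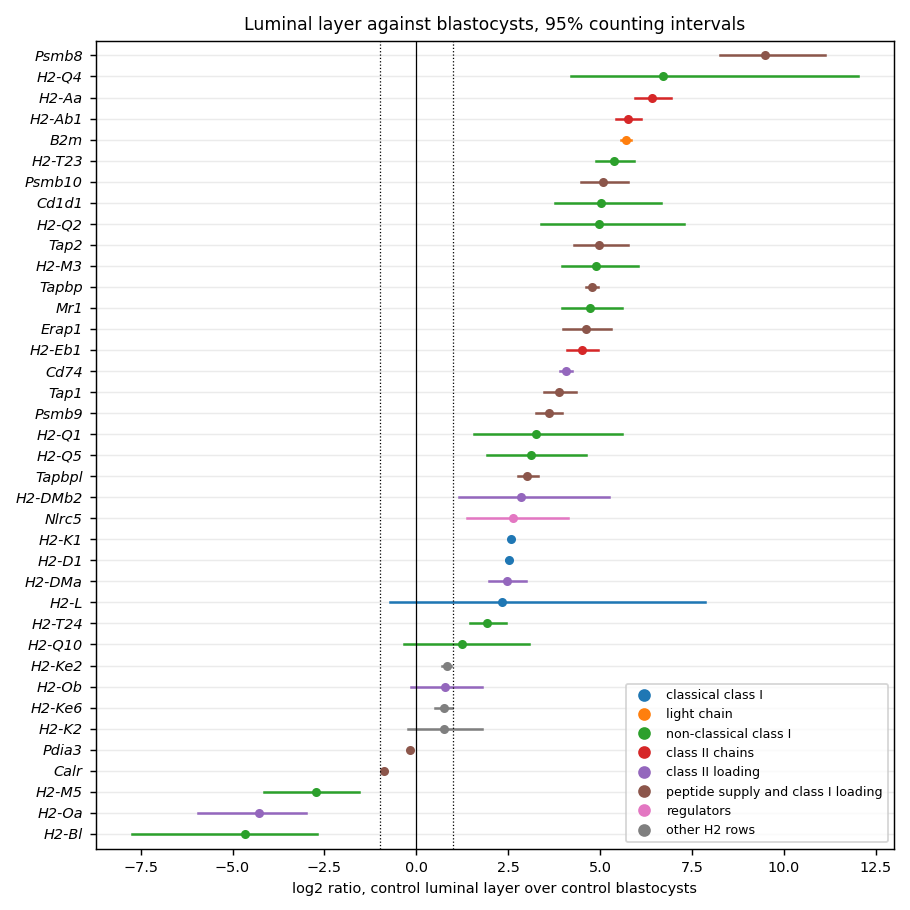
Log2 ratio of the control luminal layer over control blastocysts for the 38 genes with counts in both libraries, each with its 95% counting interval and coloured by role, with dotted lines at a log2 ratio of -1 and 1. Psmb8 lies at 9.49 at the top, and the class II chains and B2m lie between 4.51 and 6.41. Pdia3 lies at -0.18 and Calr at -0.87, and H2-M5, H2-Oa and H2-Bl lie at the bottom.

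Within the luminal layer few of the genes were called. In the library labelled eKO against control, 2 of the 41 genes compared were higher and 2 were lower, where 8.08% and 9.15% of all 15694 luminal genes were. The median log2 ratio was 0.10, against 0.01 over all genes. B2m, the most abundant of the set per length, went from 29104 to 96051 counts (2.90-fold, log2 1.54, interval 1.52 to 1.56). H2-Oa went from 5 to 53 counts (log2 3.22, 1.91 to 4.90), still under its blastocyst counts. The library labelled eKO was the highest of the luminal libraries for both genes. Stromal markers summed to 429.8, 546.9 and 345.1 TPM in the luminal libraries, with 1 of 8 called higher in the library labelled eKO against control, and their part in these values was not tested.

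The genes that were lower belong to class I loading. Tapbpl, at chromosome 6 from 125224212 to 125231860, went from 1213 to 330 counts in the library labelled eKO (4.18-fold lower, log2 -2.06, interval -2.24 to -1.89). Tap2 went from 635 to 311 (2.32-fold lower, log2 -1.22, -1.42 to -1.02), while Tap1, the other subunit of the same transporter, had a log2 ratio of 0.02 (-0.11 to 0.16). Tap1 stood per length at 1.13, 2.66 and 1.22 times Tap2 in the 3 luminal libraries. H2-T23 had a log2 ratio of -0.89 (upper end -0.78), short of a call.

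The classical heavy chains, the class II chains and Cd74 were not called. H2-K1 had a log2 ratio of 0.20 (0.17 to 0.22) and H2-D1 of 0.02 (-0.02 to 0.05), so that the higher B2m stood beside near-equal heavy chains. The class II chains had log2 ratios from 0.04 to 0.37, and Cd74 had 0.26 (0.21 to 0.31). The chaperones Calr and Pdia3 had log2 ratios of -0.63 (-0.67 to -0.59) and -0.52 (-0.56 to -0.48).

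With rLif against the library labelled eKO, 1 of the 41 genes was higher and 0 were lower, where 7.88% and 7.77% of all luminal genes were. The one gene was Tapbpl, which went from 330 to 756 counts (2.53-fold, log2 1.34, interval 1.15 to 1.53). Psmb10 lay at the limit, with 978 against 1829 counts and a log2 ratio of 1.04 whose interval began at 0.93. Tap2 went from 311 to 515 (log2 0.87, 0.66 to 1.08) and B2m from 96051 to 55857 (log2 -0.64, -0.66 to -0.63). For B2m, Tap2 and Tapbpl the rLif-treated library thus lay between the other 2 luminal libraries.

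In the library labelled eKO with rLif against control, 2 of the 41 genes were higher and 0 were lower, where 4.12% and 5.04% of all luminal genes were. They were H2-M2 with 0, 10 and 15 counts and H2-M9 with 0, 1 and 12. With the 0 set to a floor of 3 counts they were 4.85-fold and 3.88-fold higher. Their log2 intervals began at 1.80 and 1.43. Both are rare class I genes for which a handful of reads decided the call. B2m (log2 0.90, 0.88 to 0.92), H2-Aa (0.76, 0.71 to 0.82) and Cd74 (0.71, 0.67 to 0.76) stayed under the limit, as did Psmb10 (1.00, 0.88 to 1.12). The 3 luminal comparisons share libraries pairwise and are not independent of each other.

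H2-Aa, H2-Ab1, H2-Eb1 and Cd74 had their highest luminal counts in the library labelled eKO with rLif and their lowest in control, also when scaled for library size. In TPM the highest was the same, but H2-Ab1 (271.1, 265.9 and 312.8) and H2-Eb1 (56.5, 51.63 and 60.63) were lowest in the library labelled eKO. Their proportions were steady, with Cd74 per length at 0.551, 0.555 and 0.586 times the sum of H2-Aa and H2-Ab1. The heavy chains H2-K1 and H2-D1 together stood at 3, 2.76 and 1.85 times H2-Aa and H2-Ab1. Immune markers went both ways in these libraries, with 1968, 1871 and 3182 counts of C1qa and 26180, 37869 and 45086 of Cd14, but 18800, 17587 and 14292 of Lyz2 and 346, 450 and 222 of Ncr1. With rLif against control, C1qa, C1qb, C1qc, Cd68 and Csf1r had log2 ratios from 0.63 to 0.80, while Lyz2 had -0.44 and Ncr1 -0.68. Against the library labelled eKO those myeloid markers had 0.68 to 1.07, while Lyz2 had -0.16 and Ncr1 -0.88. Medians over all markers compared were 0.26 and 0.10. Of 19 immune markers compared, 2 were higher (Itgam and Zbtb46) and 0 lower in the library labelled eKO against control, 0 were higher and 2 lower (Cd209a and Zbtb46) with rLif against that library, and 0 were called with rLif against control. Over all luminal genes the shares higher and lower were 8.08% and 9.15%, 7.88% and 7.77%, and 4.12% and 5.04% in these comparisons. The part of immune cells in the class II values was not tested.

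**Figure D4:**
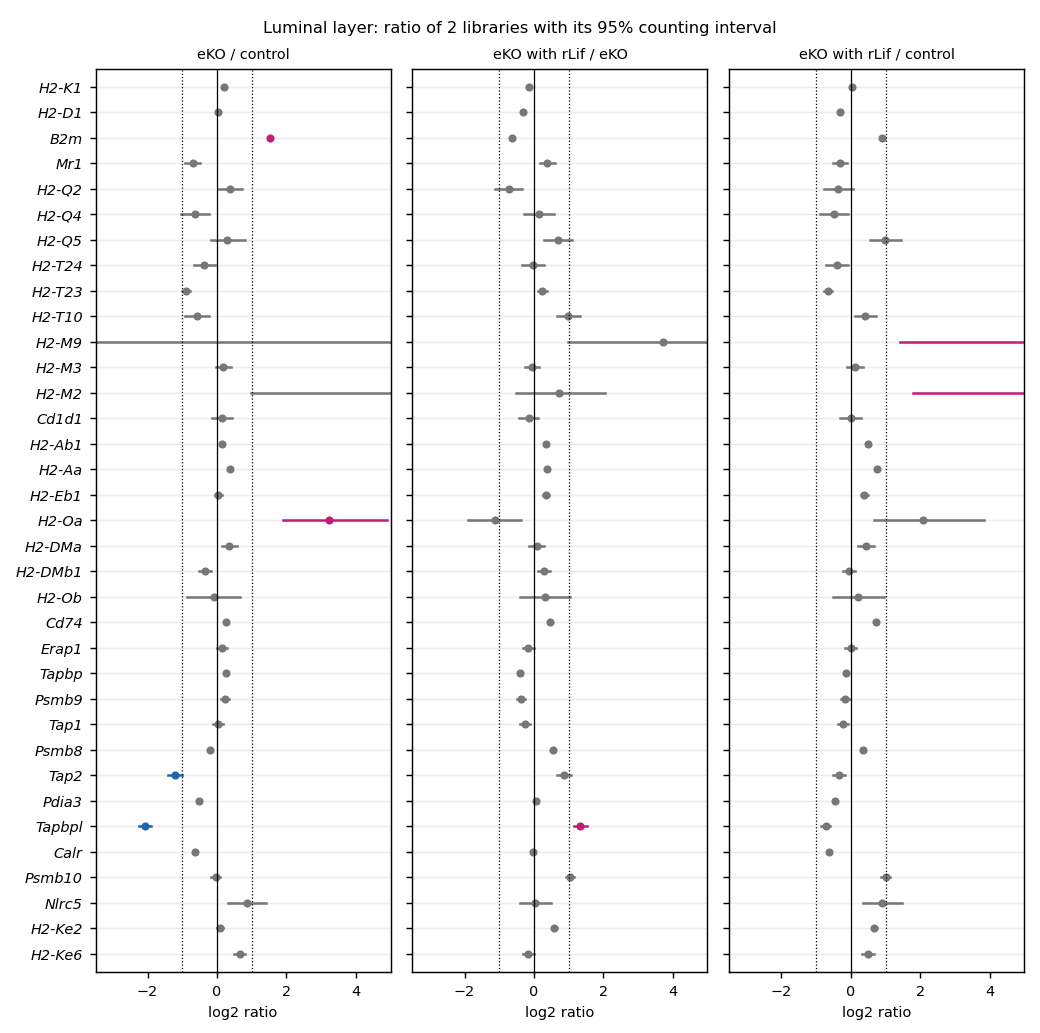
Log2 ratio with its 95% counting interval in the 3 luminal comparisons for 35 genes (at least 100 luminal counts, or called), grouped by role, with higher calls in magenta, lower calls in blue and others in grey. Intervals that run off the panel belong to genes with 0 counts in a library. Most points lie between the dotted lines at -1 and 1, and B2m, H2-Oa, Tap2 and Tapbpl lie outside them in the left panel.

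In blastocysts the classical genes were also near level across groups. Apart from H2-Bl, with up to 296 counts, the calls fell on genes with at most 51 counts in any blastocyst library. In blastocysts from eKO against control uteri, 2 of 36 genes were higher and 1 was lower, where 1.29% and 1.86% of all 14873 blastocyst genes were. H2-Bl went from 42 to 228 counts (5.29-fold, log2 2.40, interval 1.92 to 2.92). Psmb8 went from 5 to 30 (log2 2.55, 1.17 to 4.27), and Mr1 from 14 to 1 (log2 -3.84, -9.25 to -1.13). Beside these, the immune markers went from 172.2 to 324.6 TPM in sum, with a median log2 ratio of 0.58 over the 20 compared. Much of that rise was in Lyz2, which went from 109 to 234.2 TPM and was not called. Of the 20 markers 1 was higher (Cd14, log2 2.67) and 1 lower (Cd3e, 26 to 4), and the part of immune cells in these calls was not tested.

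With rLif against eKO, 1 of the 36 genes was higher and 5 were lower, where 0.914% and 2.83% of all blastocyst genes were. Cd1d1 went from 7 to 41 counts (5.89-fold, log2 2.56, 1.39 to 3.96). The lower genes were H2-T24 with 51 and 8 counts (log2 -2.66, -3.95 to -1.58), H2-T23 with 41 and 8 (log2 -2.35, -3.65 to -1.24), Psmb8 with 30 and 5 (log2 -2.58, -4.30 to -1.20), Tap2 with 19 and 2 (log2 -3.24, -6.39 to -1.19) and H2-Ob with 18 and 2 (log2 -3.16, -6.31 to -1.10). All 5 had at most 51 counts in any blastocyst library.

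Immune markers moved in the same comparison. Of 20 immune markers compared, 0 were higher and 7 were lower with rLif against eKO, with a median log2 ratio of -1.56. Over all blastocyst genes 0.914% were higher and 2.83% lower. The summed level of the immune markers went from 324.6 to 73.16 TPM, with 2128 and 289 counts of Lyz2 and 163 and 25 of C1qb. All 22 had at least 1 count in the eKO blastocysts, and Xcr1 and Cd209a were at 0 with rLif. The part of immune cells in the lower genes was not tested.

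With rLif against control, 2 of the 36 genes were higher and 3 were lower, where 0.948% and 3.99% of all blastocyst genes were. H2-Bl went from 42 to 296 counts (6.91-fold, log2 2.79, interval 2.32 to 3.29) and Cd1d1 from 5 to 41 (log2 3.01, 1.67 to 4.70). Mr1 went from 14 to 0 (4.76-fold lower with the 0 set to a floor of 3 counts, upper end of the log2 interval -1.76), Tap2 from 17 to 2 (log2 -3.12, -6.27 to -1.04) and H2-T24 from 44 to 8 (log2 -2.49, -3.79 to -1.38). H2-Bl was thus higher in both libraries from eKO females than in control, and its log2 ratio between them was 0.38 (0.13 to 0.64). Of 7 stromal markers 4 were lower in this comparison, and of 20 immune markers 4 were lower and 1 was higher (Cd14, 30 to 111 counts), and their part in the lower genes was not tested. The 3 blastocyst comparisons share libraries as the luminal ones do.

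The abundant blastocyst genes stayed within narrow limits. H2-K1 had log2 ratios of -0.14 (-0.22 to -0.07), 0.42 (0.36 to 0.49) and 0.28 (0.21 to 0.35) in the comparisons of eKO with control, rLif with eKO and rLif with control. H2-D1 had -0.01, -0.32 and -0.33, and Calr had -0.35, 0.06 and -0.29. B2m had 0.53 (0.36 to 0.70), -0.67 (-0.85 to -0.50) and -0.14 (-0.33 to 0.05), with its highest count in the eKO library. Cd74 was lower by count in both libraries from eKO females, with a log2 ratio of -1.15 (-1.46 to -0.85) for rLif against control, which did not reach a call.

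**Figure D5:**
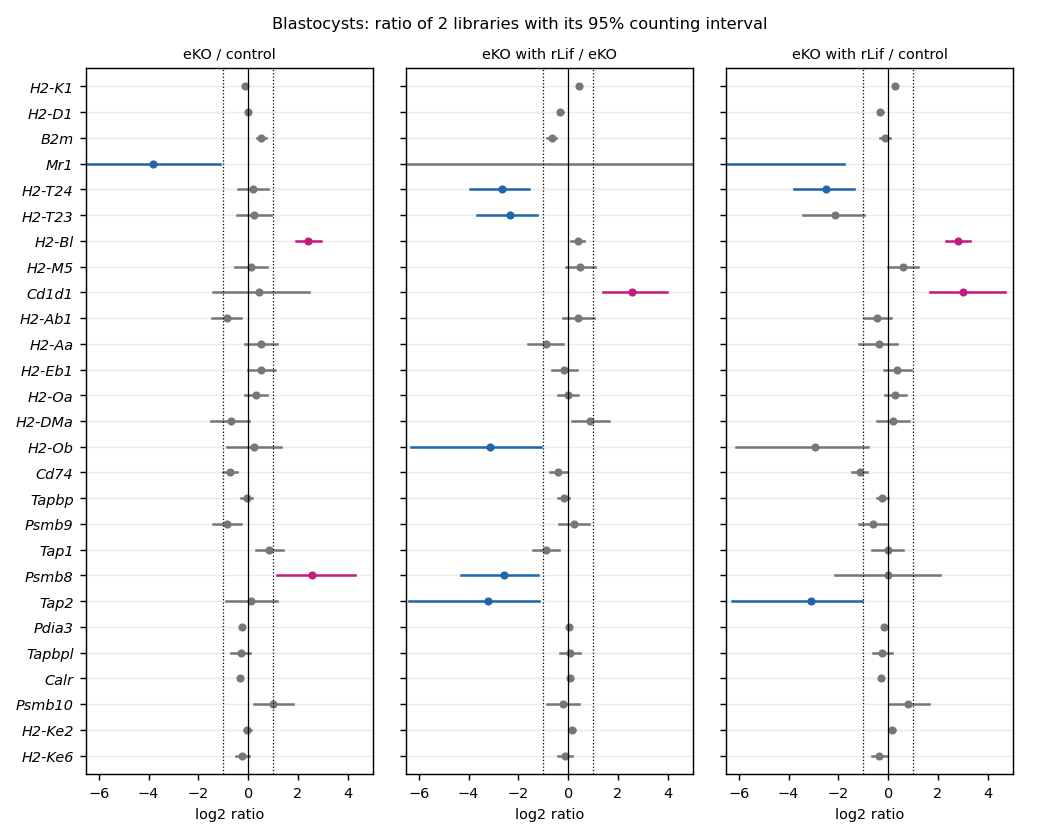
Log2 ratio with its 95% counting interval in the 3 blastocyst comparisons for 27 genes (at least 100 blastocyst counts, or called), drawn and coloured as for the luminal layer. Intervals are wide for genes of few counts such as Mr1, H2-Ob and Tap2, and narrow around 0 for H2-K1, H2-D1, Calr and Pdia3, with H2-Bl at 2.40 and 2.79 against control.

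Other genes of the pathway were taken from a list of 35, of which 33 were in the tables. In the library labelled eKO against control 1 was higher and 3 were lower, where 8.08% and 9.15% of all luminal genes were. Jak2, a kinase of the interferon gamma receptor, had 1960 and 7134 counts, while the endosomal proteases Ctsb (121457 and 55182), Ctsl (9588 and 2895) and Lgmn (3699 and 683) were the lower ones. Jak1, another kinase of that receptor, was not called (5725 and 4809). With rLif against that library 2 were higher, Ctsb with 266245 counts and Lgmn with 5666, and 2 were lower, Jak2 with 1874 and Ifngr2 with 2251 after 8378. Over all luminal genes 7.88% were higher and 7.77% lower in that comparison. With rLif against control 1 was higher (Ctsb) and 1 was lower (Ctsl, 4531 counts), where 4.12% and 5.04% of all luminal genes were.

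In blastocysts the calls in this list were 0 in eKO against control, 0 in rLif against eKO, and 2 lower in rLif against control, Rfx5 and Irf2 (31, 23 and 4 counts). Over all blastocyst genes the shares higher and lower were 1.29% and 1.86%, 0.914% and 2.83%, and 0.948% and 3.99% in these comparisons. Of the 11 transcription factors of MHC promoters, 0 were called in any of the 3 luminal comparisons, with log2 ratios that reached -1.15 (Nfya, rLif against control). Rfx5 of the X box complex had 328, 425 and 286 luminal counts and 81, 37 and 13 in blastocysts, and Irf1 had 1686, 1083 and 1288 against 94, 101 and 64. Between the tissues, 15 of the 33 were higher and 4 lower in the control luminal layer, where 27.0% and 25.1% of all genes were. Ifng, the inducer of the pathway, had 10, 11 and 5 luminal counts and 0 in all 3 blastocyst libraries, where 3 counts is the upper limit that a count of 0 allows.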

How the data were processed

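Single libraries were made with SMART-seq v4 from pooled RNA. Per the study's methods and the submitters' processing notes, the authors aligned reads with HISAT2 to GRCm38/mm10 and counted them per gene with featureCounts (Subread 2.0.0). The deposited values are whole-number read counts, although the methods call them RPKM, and the annotation release, strand and multimapping settings are not given in the sources used here. The kit does not mark strand. Total counts were 18996158 to 28460465 per library.

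TMM factors from edgeR 4.0.16 in R 4.3.3 scaled the library sizes, per tissue and, for the tissue comparison, over 6 libraries. Genes with at least 10 counts were compared. Ratios have exact 95% Clopper-Pearson intervals (scipy 1.17.1), which cover counting error only and take reads as independent. PCR reads without molecular identifiers are not independent molecules, so the intervals can be too narrow. A gene was called when the interval lay beyond a log2 ratio of 1. A count of 0 was set to 3 counts to give a fold, which leaves out the counting error of the other library. TPM used the exon lengths of the deposited tables. Windows of 50 bases were compared between GENCODE M21 transcripts, and 55 of the 60 genes were found there, all at the same place.

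Genes were named with counts if they had at least 100 counts in a tissue or were called, and a few others were named after their values were seen. The members and lists were chosen with earlier results of these data known. DESeq2 1.42.0 size factors, library totals, other count minimums and limits, and leaving out genes with overlapping exons were tried as alternatives.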

Additional observations from a re-analysis of the deposited data

Results flagged for a closer look

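Some genes differed in direction between the tissues under the same contrast, with a call in 1 tissue and an interval beyond 0 on the other side in the other, a criterion set after the values were seen. With rLif against eKO this held for 3 of 35 genes compared, where it held for 4.42% of all 13656 genes. For eKO against control it held for 1 of 35, where 4.43% did, and for rLif against control for 0, where 2.87% did. With rLif against eKO, Psmb8 had a log2 ratio of 0.56 in the luminal layer and -2.58 in blastocysts, Tap2 had 0.87 and -3.24, and H2-T23 had 0.24 and -2.35. Psmb8 also differed in the comparison of eKO with control, at -0.21 in the luminal layer and 2.55 in blastocysts. Each value is a ratio of 1 library to another, the luminal direction rests on labels that Lif did not check, and the difference between tissues was not tested.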

How the results depend on the processing

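No paired analysis was possible because each group was 1 library, and no replicate could be left out. With a log2 limit of 2 the calls went to 0 in the luminal library labelled eKO against control (from 4), 0 in rLif against eKO (from 1), 0 in rLif against control (from 2), and in blastocysts to 0 (from 3), 0 (from 6) and 1 (from 5) in the same order. With a limit of 0.5 they were 7, 8 and 12 in the luminal layer and 9 in blastocysts with rLif against control. With a minimum of 50 counts they were 0 in luminal rLif against control and 1, 3 and 3 in the 3 blastocyst comparisons, since fewer genes were compared. Without length correction the inducible proteasome share was 18.1%, 15.9% and 15% in the luminal libraries.

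The tissue comparison gave 25 to 38 calls under all settings tried. Size factors of DESeq2 and library totals left every count of calls as it was, and library totals moved the median of all luminal genes to log2 -0.06, -0.12 and -0.16. Of single-gene ratios, 2 moved beyond their counting interval and 242 did not with DESeq2, against 47 and 197 with library totals, and no called ratio changed sign under either. Depth limits the blastocyst calls that rest on few counts, such as those of Mr1, Tap2 and H2-Ob.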
